A study of Mus musculus with 12 samples.

Results

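The dermal papilla is the cluster of mesenchymal cells at the base of the hair follicle, and its identity is commonly read from the expression of a small set of genes. Followed here were 8 such genes, chosen by name: Corin, Alpl, Prom1, Ncam1, Sox2, Sox18, Trps1 and Tbx18. All 8 were found among the 14986 protein-coding genes present in the tables of both days. RNA was sequenced from YFP-positive cells, sorted from dissociated whole skin of control and dMF1/2 mice at postnatal days 14 and 16 (P14 and P16), with 3 mice in each of 4 groups and 12 libraries in all. The dMF1/2 mice were Cor-cre/+; Fgfr1Flox/Flox; Fgfr2Flox/Flox, which removes the Fgf receptors Fgfr1 and Fgfr2 where the Cre is active. The labels name the controls wild type, whereas the study's methods give Cor-cre/+; Fgfr1Flox/+; Fgfr2Flox/+ or floxed mice without Cre. Since YFP comes from a Cre-dependent ROSA26 reporter, control cells that were sorted for YFP also carried Cor-cre. Both ages were labelled as anagen, the growth phase, of the first hair cycle.

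The papilla sends signals to the epithelial matrix around it, and the growth of the hair shaft depends on this exchange. Corin is a membrane serine protease that activates natriuretic peptide precursors in the heart and marks the postnatal papilla in skin, where it acts on coat colour. Alpl, the tissue-nonspecific alkaline phosphatase, is the enzyme behind the classical papilla stain. Prom1 (CD133) is a membrane glycoprotein of cell protrusions and Ncam1 an adhesion molecule of the immunoglobulin family. Sox2 and Sox18 are HMG-box transcription factors, Trps1 is a repressor with a GATA-type zinc finger, and Tbx18 is a T-box factor that marks papilla precursors in embryonic skin. The Cre line is a targeted allele of Corin itself, so that in sorted cells of both genotypes 1 of the Corin alleles was modified. What that allele adds to the Corin reads was not tested, and it was shared by all 4 groups.

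The libraries held 19302358 to 29860750 reads, and 13334 genes at P14 and 13457 at P16 had a mean of at least 10 and were tested. As a check of the targeted genes, Fgfr1 was listed at 8885 ± 1119 normalized reads in control and 6731 ± 583 in dMF1/2 mice at P14, and at 10323 ± 2030 and 7264 ± 929 at P16 (mean ± SD, n = 3), with no overlap on either day. Fgfr2 overlapped on both days, with 4783 ± 260 and 4483 ± 766 at P14 and 5079 ± 298 and 5081 ± 838 at P16. Values count all reads of a gene, whether or not they fall in a deleted exon. Among markers of other cells, Sox10 (Schwann cells) was listed at 1.09 to 15.3 normalized reads and Ptprc (leukocytes) at 0 to 10.2 over the 12 libraries scaled together, and Krt14 (basal keratinocytes) at 14.6 to 91.7. Dermal sheath and fibroblast markers were abundant in every group. Acta2, a smooth muscle actin of the sheath, ranged from 4765 to 12477 normalized reads, and Lum, a matrix proteoglycan of fibroblasts, from 10389 to 40445.

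The RefSeq promoter sequences (GRCm38.p6, 250 bases before to 50 after the start, on the strand of the gene) are shown for the 4 genes with the largest differences between genotypes at P16 by log2 fold change, with both starts of Alpl. Capitals mark matches, on either strand, to TCF/LEF (CTTTGA or CTTTGT), SOX (ACAAT), AP-1 (TGANTCA) and ETS (CCGGAA) motifs.
Corin, chr5:72504491-72504790, minus strand: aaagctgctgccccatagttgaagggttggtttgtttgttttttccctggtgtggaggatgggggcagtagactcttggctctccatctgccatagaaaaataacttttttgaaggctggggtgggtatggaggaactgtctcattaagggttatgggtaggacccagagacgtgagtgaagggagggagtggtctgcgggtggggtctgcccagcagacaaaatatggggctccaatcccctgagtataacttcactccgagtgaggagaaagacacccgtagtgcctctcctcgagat
Alpl, first start, chr4:137796335-137796634, minus strand: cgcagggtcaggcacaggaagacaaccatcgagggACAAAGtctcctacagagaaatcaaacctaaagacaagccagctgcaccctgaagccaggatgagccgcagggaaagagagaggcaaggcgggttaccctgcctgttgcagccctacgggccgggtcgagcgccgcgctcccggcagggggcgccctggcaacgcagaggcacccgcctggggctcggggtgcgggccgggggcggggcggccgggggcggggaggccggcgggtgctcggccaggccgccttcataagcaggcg
Alpl, second start, chr4:137766426-137766725, minus strand: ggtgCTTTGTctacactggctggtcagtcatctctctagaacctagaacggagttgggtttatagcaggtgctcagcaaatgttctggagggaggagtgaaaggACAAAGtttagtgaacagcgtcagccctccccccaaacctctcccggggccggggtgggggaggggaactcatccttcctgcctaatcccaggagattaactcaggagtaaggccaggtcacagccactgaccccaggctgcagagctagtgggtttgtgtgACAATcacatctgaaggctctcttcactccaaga
Prom1, chr5:44101687-44101986, minus strand: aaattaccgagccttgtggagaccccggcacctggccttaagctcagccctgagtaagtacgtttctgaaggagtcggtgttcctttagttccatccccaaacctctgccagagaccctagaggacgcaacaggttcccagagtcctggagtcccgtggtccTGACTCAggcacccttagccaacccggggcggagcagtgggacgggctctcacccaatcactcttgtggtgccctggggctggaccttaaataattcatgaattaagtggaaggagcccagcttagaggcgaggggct
Sox2, chr3:34649745-34650044, plus strand: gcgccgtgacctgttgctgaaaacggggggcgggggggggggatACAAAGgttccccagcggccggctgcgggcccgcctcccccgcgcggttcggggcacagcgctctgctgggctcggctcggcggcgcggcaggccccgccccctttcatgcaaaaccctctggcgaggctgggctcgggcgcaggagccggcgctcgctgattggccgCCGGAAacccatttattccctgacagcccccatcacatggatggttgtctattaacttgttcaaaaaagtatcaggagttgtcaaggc

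No match to these letters was found in the Corin window, nor in that of Tbx18. A TCF/LEF match stood 215 bases before the first Alpl start, and further matches stood 246 and 146 bases before the second. The Sox2 window held a TCF/LEF match 206 bases and an ETS match 38 bases before the start, and the Prom1 window shown an AP-1 match 88 bases before it. In the window of another Prom1 start, not shown, lay a TCF/LEF and an AP-1 match, and the second Alpl window also held a SOX match 17 bases after the start. No match overlapped another. Matches of this length are common: of 32851 mouse promoter windows, 31.2% held the TCF/LEF letters, 31.0% SOX, 7.81% AP-1 and 14.9% ETS. The table of promoter sequences matched 5 of the 8 genes by symbol.

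Corin was by far the most abundant of the 8 per exon length (ENSMUSG00000005220, chromosome 5: 72300025-72504473, minus strand, GRCm38, 5400 exonic bases). Its level, in normalized reads per kb of exon, was 5595 in P14 control, 5436 in P14 dMF1/2, 1377 in P16 control and 3956 in P16 dMF1/2 mice. In P16 control mice the 3 libraries spanned 507 to 2249 per kb and overlapped those of Trps1, at 680 to 851, whereas in the other groups Corin did not overlap any other gene of the set. Trps1 and Ncam1 followed with group means of 591 to 783 and 381 to 572 per kb. Alpl was second at P14 in dMF1/2 mice, at 715 per kb, where its range overlapped that of Trps1, and sixth in P16 control mice, at 68.3 per kb. Prom1 and Sox2 held the last positions in each group, with means of 20.5 to 60.2 and 26.9 to 68.8 per kb. Their ranges overlapped at P16 in both genotypes and did not at P14.

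**Figure D1:**
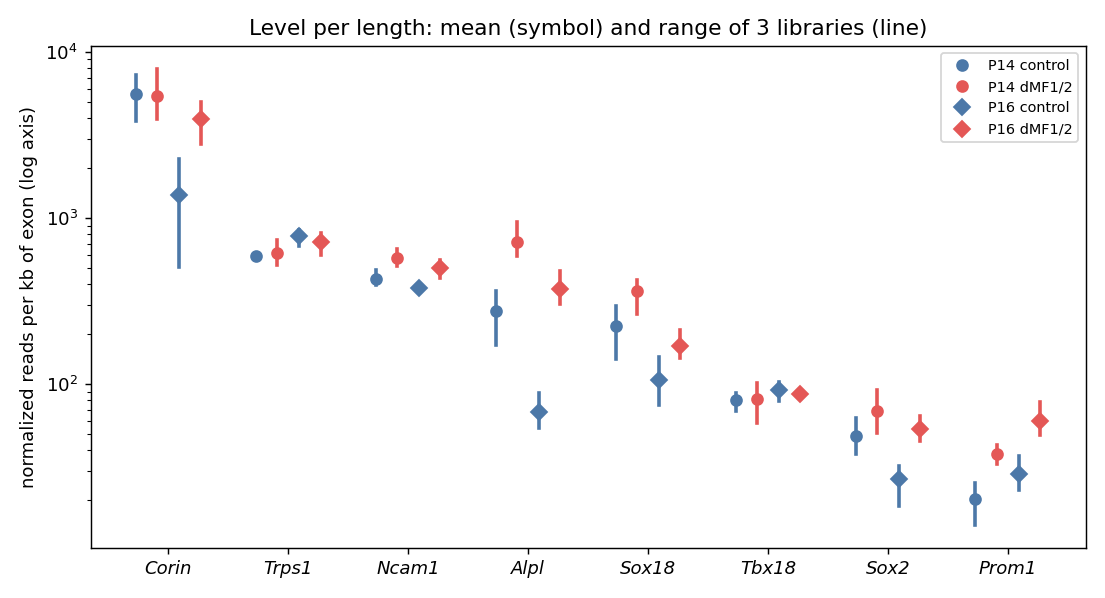
Level of each gene in normalized reads per kb of exon, on a log axis, after scaling of the 12 libraries together, with symbols for the mean and lines for the range of 3 libraries per group (blue control, red dMF1/2, circles P14, diamonds P16). Corin lies above the other genes in 3 groups, and its P16 control range of 507 to 2249 reaches down to that of Trps1.

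The first question was whether these genes differed between dMF1/2 and control mice within a day. At P14, none of the 8 passed limma at an adjusted p under 0.05, against 0.0525% of all genes tested (7 of 13334). Of the 8, 4 had an unadjusted p under 0.05 (7.32% of all genes), and 3, Alpl, Prom1 and Ncam1, were higher in every dMF1/2 library than in every control library (12.7% of all genes did not overlap in 1 direction or the other). With edgeR 0 of the 8 passed (0.0525% of all genes), and with DESeq2 2, Alpl and Prom1 (1.55%). At P16, 2 of the 8, Alpl and Prom1, rose in dMF1/2 mice, against 2.18% of all genes called higher and 4.32% called in either direction. Another 3, Corin, Sox2 and Ncam1, were also higher in every dMF1/2 library than in every control library without passing (5 of 8 in all, beside 24.5% of all genes not overlapping). With DESeq2 4 of the 8 passed at P16, Alpl, Prom1, Sox2 and Ncam1, against 8.35% of all genes. The median log2 fold change of the 8 was 0.45 at P14 and 0.86 at P16, beside 0.00 for all genes on each day.

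**Figure D2:**
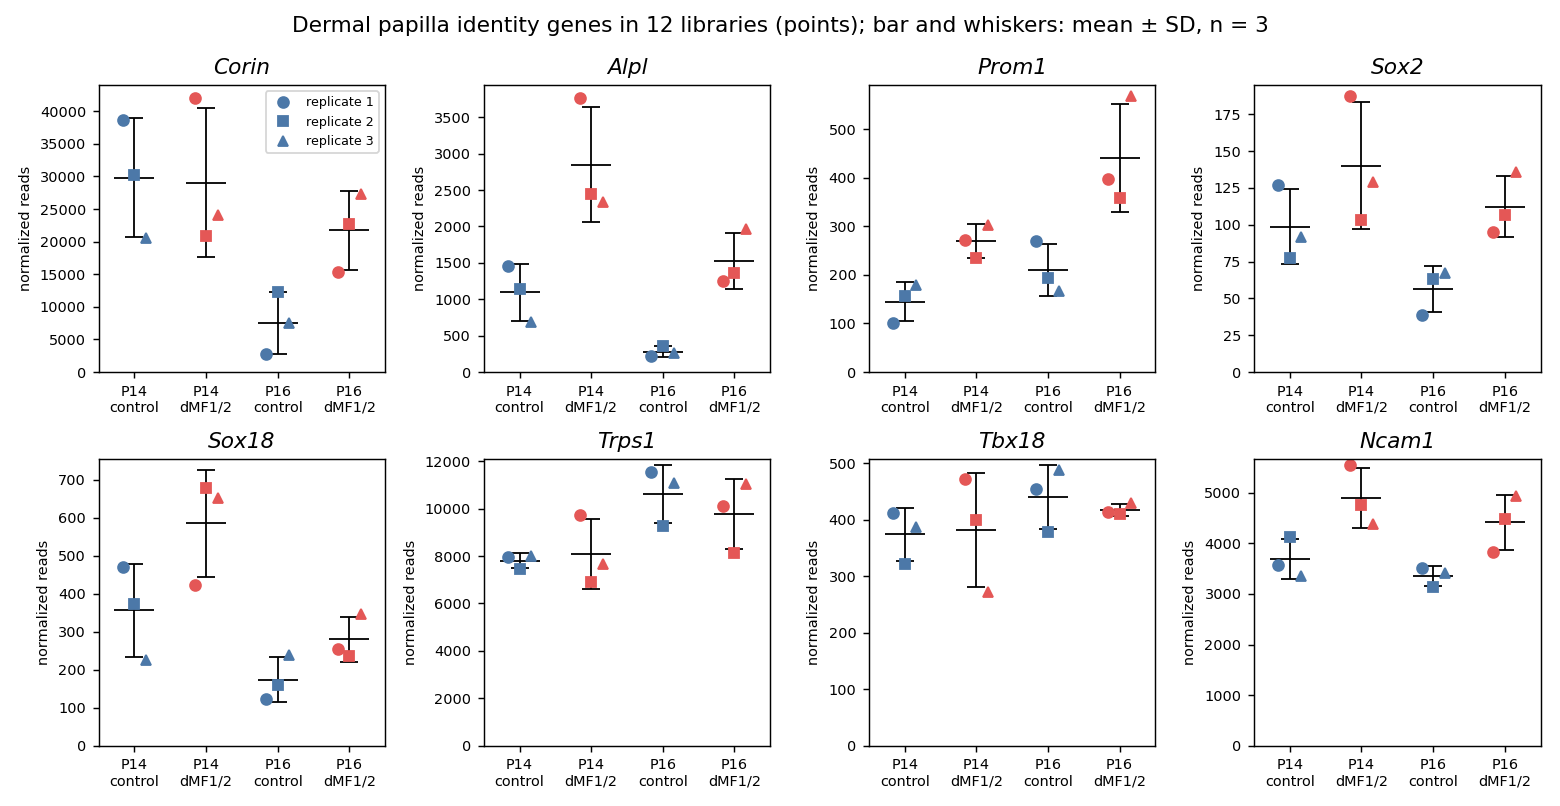
Normalized reads of the 8 genes in the 12 libraries, in the deposited scaling of each day, on linear axes from 0; symbols give the replicate number, blue control and red dMF1/2, with bar and whiskers for mean ± SD (n = 3). Corin overlaps between genotypes at P14 and not at P16, Alpl is higher in dMF1/2 mice on both days, and Trps1 and Tbx18 overlap on both days.

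Same-numbered libraries of a day deviated from their group means together, so the replicate number was also fitted as a block. With the block, 1 of the 8 passed at P14, Alpl, against 1.68% of all genes, and 6 of the 8 passed at P16, all higher in dMF1/2 mice, against 10.4% of all genes (4.87% higher). The 6 were Corin, Alpl, Prom1, Sox2, Sox18 and Ncam1.

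For Corin no difference between genotypes was detected at P14. The control libraries held 38724, 30193 and 20522 normalized reads and the dMF1/2 libraries 42082, 20930.1 and 24032, and the genotypes overlapped, with a spread of 1.89-fold among controls and 2.01-fold among dMF1/2 mice. Limma gave a log2 fold change of -0.06 (95% interval -0.84 to 0.72, adjusted p = 0.999), so a difference of up to 0.84 on the log2 scale lies within the error. At P16, control mice held 2776, 12352 and 7518 and dMF1/2 mice 15324, 22638 and 27358 normalized reads. The lowest dMF1/2 library exceeded the highest control library, and the controls spread 4.45-fold. The log2 fold change was 1.73 ± 0.49 (SE, 95% interval 0.62 to 2.85), with an adjusted p of 0.0938 by limma and of 0.0105 with the block. The exact two-sided permutation p was 0.1, the smallest that 3 against 3 allows. Ratios of dMF1/2 over control within replicate numbers 1, 2 and 3 were 5.52, 1.83 and 3.64 at P16, beside 1.09, 0.693 and 1.17 at P14. The P16 control library of replicate 1 set much of the size: without it the log2 fold change was 1.14, and without replicate 2 of the same group it was 2.21 (adjusted p = 0.0294). Of the Corin exonic bases, 2.72% lie opposite an antisense gene, Gm20647.

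Alpl (ENSMUSG00000028766, chromosome 4: 137741733-137796384, minus strand) separated the genotypes on both days. At P14 the control libraries held 1455, 1139 and 688 normalized reads and the dMF1/2 libraries 3767, 2443 and 2342. Every dMF1/2 library lay above every control library. The log2 fold change of 1.41 ± 0.30 (SE) had an adjusted p of 0.258 by limma, of 0.00315 with the block and of 0.000787 by DESeq2, and over all settings that kept the 6 libraries the adjusted p ranged from 0.000787 to 0.263. At P16 control mice held 223, 359.8 and 257 and dMF1/2 mice 1254, 1364 and 1971 normalized reads. Alpl was 5.47-fold higher in dMF1/2 mice by group means, with a log2 fold change of 2.45 ± 0.22 (SE, 95% interval 1.95 to 2.94, limma's adjusted p = 0.00329). This call held with each library left out in turn, with adjusted p of 0.00220 to 0.0259. Within replicate numbers Alpl gave ratios of 2.59, 2.15 and 3.41 at P14, then of 5.63, 3.79 and 7.68 at P16, higher in dMF1/2 mice in 6 of 6 pairs.

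Prom1 (ENSMUSG00000029086, chromosome 5: 43993620-44102032, minus strand) was at a low level throughout. Control libraries held 101, 155 and 178 normalized reads at P14 and 269.8, 193 and 167 at P16, and dMF1/2 libraries 271, 235 and 303 at P14 and 396, 358 and 567 at P16. The dMF1/2 libraries exceeded all control libraries of their day. At P14 the log2 fold change was 0.92 ± 0.23 (SE, adjusted p = 0.317 by limma, 0.0526 with the block and 0.0270 by DESeq2). At P16 it was 1.07 ± 0.22 (SE, 95% interval 0.56 to 1.57), with a limma adjusted p of 0.0374. That call was lost without any of 5 libraries, with adjusted p of 0.0736 without control replicate 2, 0.119 without control replicate 3, and 0.0829, 0.0551 and 0.114 without dMF1/2 replicates 1, 2 and 3. Of its exonic bases, 5.91% lie opposite an antisense gene, Gm16401, and whether the counting used strand is not given in the sources used here.

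Ncam1 (ENSMUSG00000039542, chromosome 9: 49502136-49798925, minus strand) showed a smaller difference with tight replicates. At P14 the control libraries held 3568, 4131 and 3361 and the dMF1/2 libraries 5550.0, 4766 and 4379 normalized reads. At P16 they held 3508, 3129.6 and 3407 against 3837, 4479.9 and 4926. On each day all dMF1/2 libraries lay above all control libraries. The log2 fold change was 0.41 ± 0.13 (SE, adjusted p = 0.471) at P14 and 0.39 ± 0.11 (SE, adjusted p = 0.0888 by limma, 0.0468 with the block, 0.0275 by DESeq2) at P16. Its exons overlap those of an antisense gene, Gm11149, over 4.81% of their bases.

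Sox2 (ENSMUSG00000074637, chromosome 3: 34650405-34652461, plus strand), a single-exon gene, lies within an intron of the noncoding Sox2ot on the same strand and shares no exonic base with it. At P14 the control libraries held 127, 77.2 and 91.7 and the dMF1/2 libraries 187, 103 and 129 normalized reads, and the groups overlapped. At P16 control mice held 38.4, 63.3 and 66.9 and dMF1/2 mice 95.1, 106 and 135, and the groups did not overlap. These values rest on 44 to 223 reads a library. The log2 fold change was 0.49 (95% interval -0.15 to 1.13, adjusted p = 0.815) at P14 and 1.01 ± 0.25 (SE, adjusted p = 0.0635 by limma, 0.0148 with the block and 0.00811 by DESeq2) at P16. Within replicate numbers dMF1/2 mice were higher in 6 of 6 pairs, by 1.34 to 1.48 times at P14 and 1.68 to 2.47 times at P16. Sox2 is also expressed in Merkel and Schwann cells. Of the 7 Merkel markers listed, 3 were analysed, and Atoh1, Krt18, Isl1 and Insm1 were not analysed here. The sum of these 3 was 443 to 906 normalized reads in control and 944 to 1527 in dMF1/2 mice at P14 without overlap, and 602 to 958 and 644 to 1227 at P16. The separation at P14 was that of the ion channel Piezo2, at 401 to 797 and 885 to 1481, whereas Krt20 overlapped, at 38.5 to 91.3 and 44.3 to 109.8. The 8 Schwann markers analysed in all libraries summed to 1232 to 1759 and 1237 to 1918 at P14, and to 1884 to 2191 in control and 1389 to 1797 in dMF1/2 mice at P16. This sum was led by Egr2, also an immediate early gene, with P16 means of 1163 in control and 763 in dMF1/2 mice, whereas Ngfr, the next most abundant, was at 282 and 297. The part of such cells in the Sox2 level was not tested.

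Sox18 (ENSMUSG00000046470, chromosome 2: 181669836-181671640, minus strand) overlapped between genotypes on both days. The control libraries held 469.5, 373 and 225 normalized reads at P14 and 123, 159 and 239 at P16. Those of dMF1/2 mice held 424, 679 and 651 at P14 and 255, 237 and 347 at P16. Replicate 2 of the P16 dMF1/2 libraries lay just under the highest P16 control. The log2 fold change was 0.75 (95% interval 0.05 to 1.44, adjusted p = 0.637) at P14 and 0.72 (0.14 to 1.29, adjusted p = 0.162 by limma and 0.0205 with the block) at P16. Sox18 is also expressed in blood and lymphatic endothelium. The sum of the 11 endothelial markers was 1739 to 2260 in P14 control, 1908 to 2172 in P14 dMF1/2, 1129.8 to 2238 in P16 control and 1488 to 1783 normalized reads in P16 dMF1/2 mice, overlapping on both days. Its lowest library, P16 control replicate 1, was also that with the least Sox18. The median log2 fold change between genotypes was 0.04 over the 9 endothelial markers tested at P14 and -0.71 over the 11 tested at P16, beside 0.0048 and -0.0043 over all genes. Among the defining endothelial genes, Pecam1 was at 79.2 to 323 in control and 58.1 to 122 in dMF1/2 mice at P16, and Cdh5 at 144 to 375 and 142 to 195. Ramp2, a receptor accessory protein of endothelium, differed from the list's P16 median in sign and was higher in every dMF1/2 library than in every control library of the same day, at 626 to 742 in control and 766 to 912 in dMF1/2 mice at P14, and at 375 to 491 and 562 to 593 at P16 (adjusted p = 0.600 and 0.108 by limma). The part of these markers in the Sox18 level was not tested.

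Trps1 (ENSMUSG00000038679, chromosome 15: 50654752-50890463, minus strand) and Tbx18 (ENSMUSG00000032419, chromosome 9: 87702800-87731260, minus strand) did not separate the genotypes. Trps1 was at 7971, 7442 and 7994 normalized reads in control and 9731, 6885 and 7674 in dMF1/2 mice at P14, and at 11558, 9249.7 and 11071 and 10110.1, 8148 and 11022 at P16. Its log2 fold change was 0.04 (95% interval -0.29 to 0.37) at P14 and -0.13 (-0.45 to 0.20) at P16. Tbx18 was at 413, 322 and 387 normalized reads in control and 472, 400.1 and 272 in dMF1/2 mice at P14, and at 454, 378 and 489 and 414, 409.6 and 429 at P16. Its log2 fold change was 0.00 (-0.50 to 0.50) at P14 and -0.07 (-0.33 to 0.19) at P16. For both genes, differences of over 0.50 on the log2 scale lie outside these intervals. Of the Tbx18 exonic bases, 20.6% lie opposite D030062O11Rik, so that part of its reads may belong to that transcript if strand was not used.

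**Figure D3:**
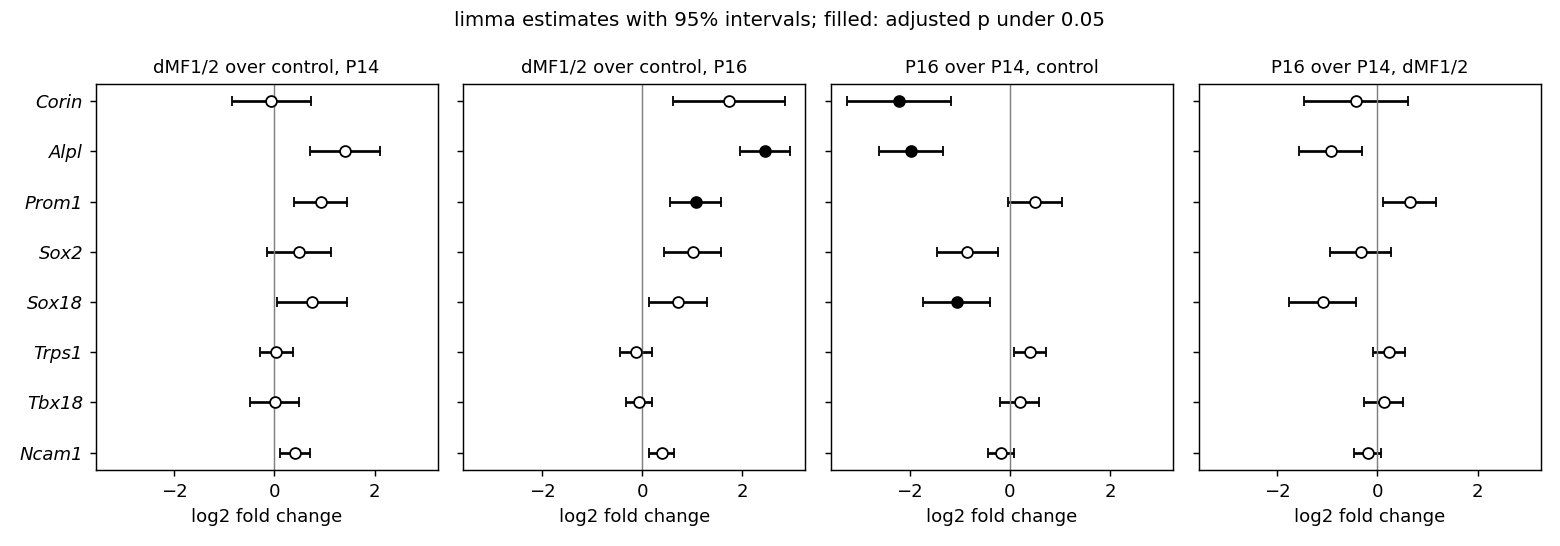
Log2 fold changes of the 8 genes with 95% intervals from limma in 4 comparisons, dMF1/2 over control at P14 and P16 and P16 over P14 in control and dMF1/2 mice; filled circles have an adjusted p under 0.05. Filled are Alpl and Prom1 at P16 between genotypes, and Corin, Alpl and Sox18 between days in control mice.

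The second question was how the genes moved from P14 to P16 within each genotype. For this the 12 libraries were scaled together, which shifted the deposited values by 0.941% to 1.43% at P14 and by -2.23% to -1.23% at P16. In control mice 3 of the 8 fell by the test, Corin, Alpl and Sox18, against 8.28% of all genes called lower and 14.5% in either direction. None was called higher, against 6.26% of all genes. With DESeq2, under which 19.2% of all genes passed, Sox2 and Trps1 were called as well. Groups did not overlap for 4 of the 8, Corin, Alpl, Sox2 and Trps1, beside 36% of all genes. In dMF1/2 mice none of the 8 passed limma, against 5.8% of all genes. There 3 of the 8 had an unadjusted p under 0.05 (22.8% of all genes), 2 passed with DESeq2, Alpl and Sox18 (10% of all genes), and 0 with edgeR (5.72%). Groups did not overlap for 3 of the 8, Alpl, Prom1 and Sox18, beside 27.6% of all genes. The P16 control libraries enter both this comparison and that of genotypes at P16, so the falls in control mice and the higher values of dMF1/2 mice at P16 are not independent.

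Corin fell in control mice from 30212 ± 9220.0 to 7436 ± 4704 normalized reads, a ratio of means of 4.06, with all P16 libraries below all P14 libraries. Limma's log2 fold change was -2.22 ± 0.47 (SE, 95% interval -3.26 to -1.18, adjusted p = 0.0133). The adjusted p was 0.0527 with only the 6 control libraries in the fit and 0.0519 without P14 control replicate 1. The log2 fold change shrank to -1.62 when P16 control replicate 1 was left out. In dMF1/2 mice Corin was at 29357 ± 11645 and 21362 ± 5982, and the days overlapped (log2 fold change -0.43, 95% interval -1.47 to 0.61, adjusted p = 0.648). Alpl fell in control mice from 1108 ± 391 to 276 ± 69.9 (log2 fold change -1.97 ± 0.29 SE, adjusted p = 0.00271), a call that held under all 8 other settings run and without each of the 12 libraries in turn. In dMF1/2 mice it was at 2884 ± 813 and 1500.5 ± 379.7, with no overlap (log2 fold change -0.94, 95% interval -1.57 to -0.30, adjusted p = 0.0815 by limma, 0.0204 by DESeq2, and 0.0494 without P14 control replicate 3).

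Sox18 was at lower means at P16 in both genotypes, and the call depended on the fit. In control mice it fell from 361 ± 125 to 171 ± 59.0 (log2 fold change -1.06 ± 0.30 SE, adjusted p = 0.0383). That call was lost with only the 6 libraries compared (0.0884) and without replicate 1 (0.141) or 2 (0.0993) of the P14 controls, replicate 1 (0.140) or 2 (0.0828) of the P16 controls, P14 dMF1/2 replicate 3 (0.0524) or P16 dMF1/2 replicate 1 (0.0525). In dMF1/2 mice it was at 591 ± 140.1 and 274 ± 58.0 without overlap (log2 fold change -1.09 ± 0.30 SE, adjusted p = 0.0575 by limma and 0.00715 by DESeq2). That value passed with only the 6 libraries compared (0.0452) and without P14 control replicates 1 (0.0450) or 3 (0.0382) or P14 dMF1/2 replicate 1 (0.0435). Endothelial markers went in both directions between days in control mice: Tek was at 371 to 760 at P14 and 221 to 306 at P16, and Pecam1 at 40.2 to 82.0 and 79.2 to 323. Of the 11 markers, 2 passed higher and 2 lower, beside 6.26% and 8.28% of all genes. Ramp2, 1 of the 2 that passed lower, was at 626 to 742 at P14 and 375 to 491 at P16 in control mice (log2 fold change -0.60, adjusted p = 0.00824). It was also the 1 marker of 11 called in dMF1/2 mice, at 766 to 912 and 562 to 593 (log2 fold change -0.51, adjusted p = 0.0267), beside 5.8% of all genes. Tek in dMF1/2 mice was at 381 to 616 at P14 and 206 to 295 at P16 without overlap (adjusted p = 0.0664). Pecam1 in dMF1/2 mice was at 29.1 to 109.9 and 58.1 to 122. The median over the 11 markers was the opposite in sign to the difference in Sox18, with a log2 fold change between days of 1.42 in control and 0.33 in dMF1/2 mice, beside 0.014 and 0.0094 over all genes. The part of endothelial markers in the Sox18 values was not tested.

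Sox2 in control mice was at 99.8 ± 25.7 and 55.4 ± 15.3 without overlap (log2 fold change -0.85, adjusted p = 0.0622 by limma, 0.0317 by DESeq2 and 0.0452 without P14 dMF1/2 replicate 1), and in dMF1/2 mice at 142 ± 44.0 and 110.2 ± 20.6 (log2 fold change -0.33, adjusted p = 0.528). Prom1 had positive log2 fold changes in both genotypes, with 0.50 in control (adjusted p = 0.180) against 0.64 in dMF1/2 mice (adjusted p = 0.142). Trps1 also had positive values, 0.40 in control (adjusted p = 0.0907 by limma and 0.0496 by DESeq2), and 0.23 in the mutants (adjusted p = 0.395). Tbx18, at 0.20 and 0.12, and Ncam1, at -0.18 and -0.19, did not pass in either genotype.

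Whether the change over the days differed between genotypes was tested as an interaction. None of the 8 passed limma, and no gene of 13415 did (0%), while 2 of the 8, Corin and Alpl, had an unadjusted p under 0.05 (4.83% of all genes). DESeq2 (0.0522% of all genes), edgeR (0%) and the block (0%) also called 0 of the 8. The difference of the log2 fold changes was 1.79 for Corin (95% interval 0.32 to 3.26, unadjusted p = 0.0212) and 1.03 for Alpl (0.13 to 1.93, unadjusted p = 0.0278). For Sox18 it was -0.03 (-0.97 to 0.91) and for Ncam1 -0.02 (-0.40 to 0.36). The fall of Corin in control mice and its overlap between days in dMF1/2 mice are thus not shown to differ after correction over all genes.

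**Figure D4:**
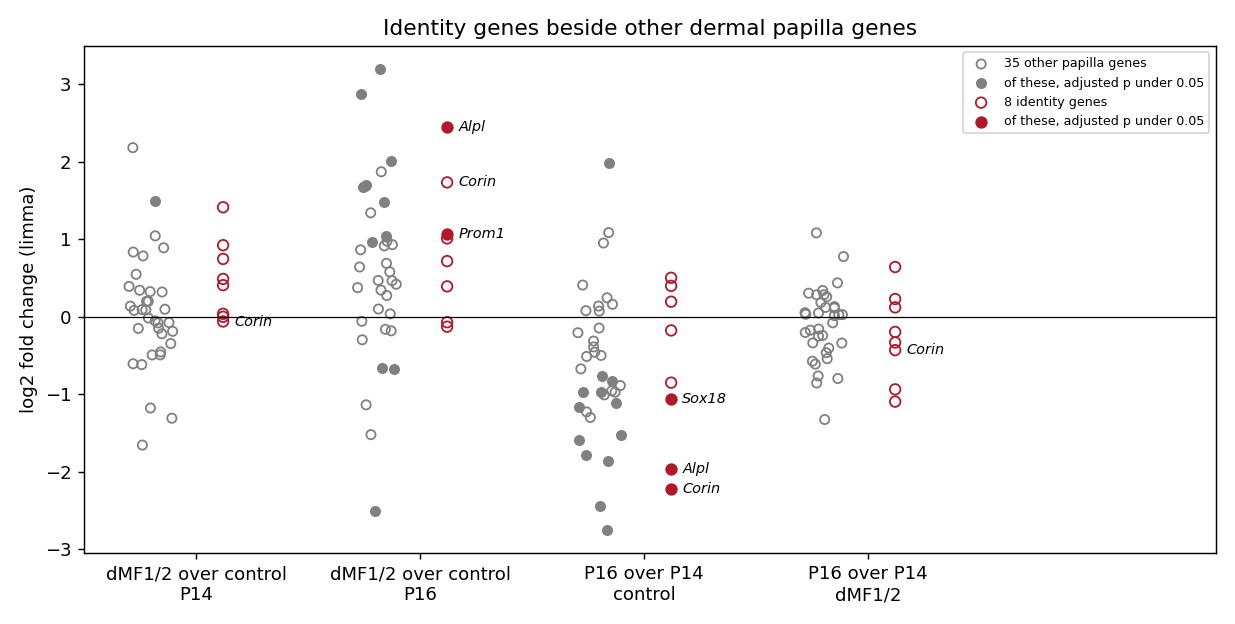
Log2 fold changes (limma) of the 8 identity genes (red) beside 35 other papilla genes (grey) in 4 comparisons; filled symbols have an adjusted p under 0.05, and horizontal scatter of the grey points carries no meaning. At P16, 2 of the 8 and 12 of the 35 are filled, and between days in dMF1/2 mice none is.

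The 8 genes were read against 35 other genes of the papilla, all of which passed the filter. At P14, 1 of the 35 rose in dMF1/2 mice (0.0525% of all genes were called in either direction), Hey2, a transcription factor of the Notch pathway, from 285 ± 44.0 to 804 ± 119 normalized reads (log2 fold change 1.50, adjusted p = 0.0474). At P16, 9 of the 35 rose and 3 fell, beside 4.32% of all genes called in either direction, with a median log2 fold change of 0.58. The largest rises were in Rspo3, a Wnt agonist (3.20, adjusted p = 0.00502), Scube3, a secreted signalling protein (2.88, adjusted p = 0.00154), Hey2 (2.01, adjusted p = 0.0180), the homeobox gene Alx4 (1.70, adjusted p = 0.0117) and the BMP antagonist Nog (1.68, adjusted p = 0.0152). The 3 falls were Igfbp3, a binding protein of insulin-like growth factors (-2.51, adjusted p = 0.0123), the transcription factor Twist1 (-0.67, adjusted p = 0.0169) and Crabp1, which binds retinoic acid (-0.66, adjusted p = 0.0424). With the block 7 of the 35 passed at P14, beside 1.68% of all genes, and 19 at P16, beside 10.4%. Between days 12 of the 35 fell and 1 rose in control mice (median -0.76), where 8.28% of all genes fell and 6.26% rose. In dMF1/2 mice none of the 35 passed (median 0.02), beside 5.8% of all genes. Called papilla genes thus went in both directions between genotypes at P16, and Trps1 and Tbx18 kept intervals around 0 beside genes that rose and genes that fell.

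Partners and relatives of the 8 genes were given by a second list of 32 genes, of which 23 were tested at P16 and 3 passed, beside 4.32% of all genes. Ncam2, the paralogue of Ncam1, rose in dMF1/2 mice at P16 (log2 fold change 0.85, adjusted p = 0.0354). Falls were found in Ank, a membrane transporter tied to extracellular pyrophosphate, which Alpl hydrolyses (-1.10, adjusted p = 0.0159), and Sox4, another HMG-box gene (-0.98, adjusted p = 0.00819). At P14 none of the 21 tested passed (0.0525% of all genes did), and with the block 1 did at P14 (1.68% of all genes) and 5 at P16 (10.4%). The natriuretic peptide genes Nppa and Nppb, whose products Corin processes, and Asip, the agouti gene, were not analysed here.

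Other measures moved with the P16 comparison and with the days in control mice. The summed level of the 7 pericyte markers was 32660 to 41457 normalized reads in P16 control and 18735 to 24821 in P16 dMF1/2 mice, without overlap. Of these, Cspg4 was at 9408 to 15512 and 2191 to 3873, and Pdgfrb at 10461 to 12553 and 8602 to 10843. In control mice the pericyte sum was 19665 to 27276 at P14, below every P16 control library, and 2 of the 6 pericyte genes tested between days (Cspg4 and Pdgfrb) rose, beside 6.26% of all genes. Of the dissociation stress genes, 3 of 10 (Atf3, Hspa1a and Hspa1b) rose between days in control mice, beside 6.26% of all genes. Between genotypes at P16, limma called 1 of 10 stress genes and 1 of 6 pericyte genes lower in dMF1/2 mice. Of all genes, 4.32% were called in either direction. With the block, 3 of 10 stress genes and 2 of 6 pericyte genes passed, beside 10.4% of all genes. The 10 genes of dissociation stress summed to 360601 to 503549 in P16 control and 321655 to 343031 in P16 dMF1/2 mice, and P16 control replicate 1, the library with the least Corin, held the highest sum. Sheath markers did not separate the genotypes, at 25376 to 48974 and 24052 to 39298, and the fibroblast sums overlapped as well, at 99380 to 131474 and 97561 to 135842. At P14, replicate 1 of each genotype had the lowest sheath sum and the most Corin of its group. At P16, replicate 1 of each genotype had the lowest sheath sum and the least Corin of its group. The replicate numbers do not pair across days. The part of these markers in the levels of the 8 genes was not tested. In sorted bulk samples, fewer papilla cells and less RNA of a gene per cell cannot be told apart.

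The genes whose profile over the 12 libraries was most like that of each of the 8 were found by the root mean square difference of centred log2 values, among 10239 genes. Nearest to Corin were Sfrp1 (0.21), an extracellular Wnt modulator, Rspo4 (0.25), a Wnt agonist, and Slitrk5 (0.25), against a root mean square of 1.06 for the Corin profile itself. Nearest to Alpl, with 1.28 of its own, were Cmpk2 (0.23), Scube3 (0.25) and Lrrn2 (0.30), and nearest to Sox2, with 0.58, were Rspo1 (0.16), Sdk2 (0.17) and 1190002N15Rik (0.17). Prom1 (0.64) had no close match, with Rev3l at 0.33, Gpm6a at 0.33 and Greb1l at 0.34. For Sox18 (0.74) the nearest was Fam213a at 0.29, then Adgrb1 (0.38) and Scn2b (0.39). Trps1, Tbx18 and Ncam1 varied little, with 0.23, 0.22 and 0.25 of their own. Their nearest genes were Prdm4 (0.07), Dhx15 (0.08) and Nup98 (0.08) for Trps1, Tob2 (0.11), Mtmr14 (0.11) and Atp5sl (0.12) for Tbx18, and Acsf2 (0.09), Pygo1 (0.10) and Hoxc4 (0.10) for Ncam1. Among the 8 themselves the nearest to Corin was Sox2, at 0.60, and the nearest to Alpl was Corin, at 0.68. The profiles share libraries and depth, so likeness here is a description.

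**Figure D5:**
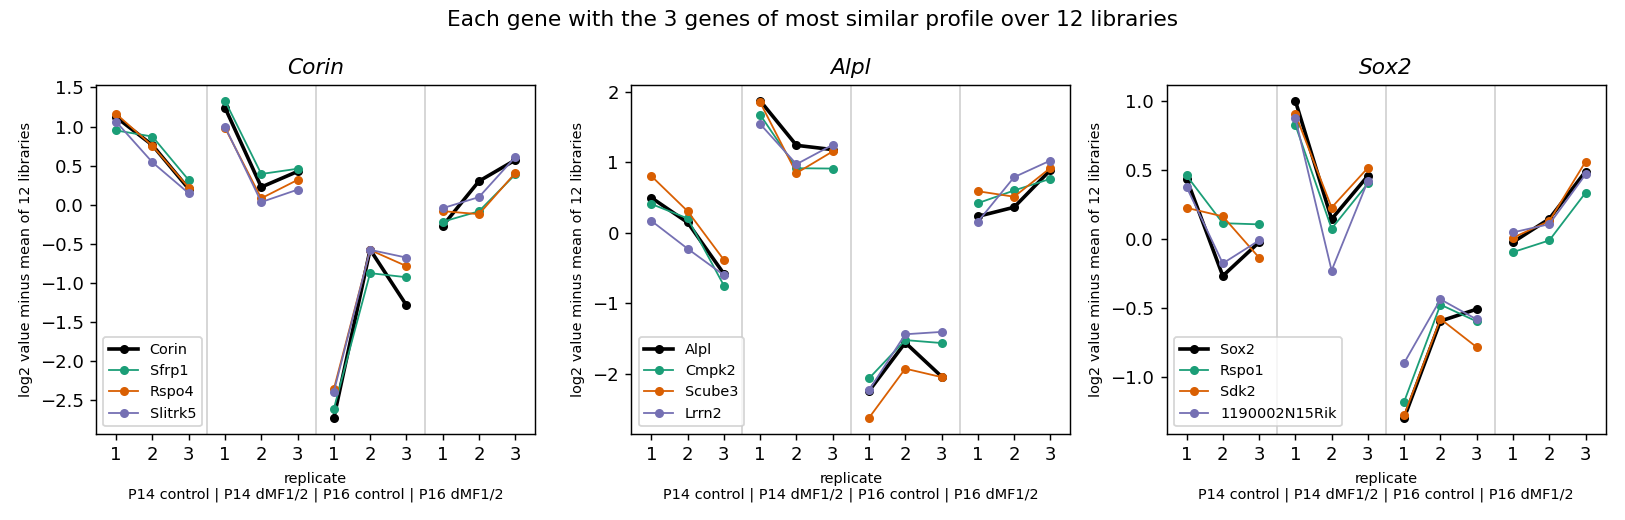
Centred log2 values over the 12 libraries, in 4 groups separated by vertical lines, of Corin, Alpl and Sox2 (black) and the 3 genes with the most similar profile to each (colours). In all 3 panels the lowest library is P16 control replicate 1.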

How the data were processed

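Tables on sorted YFP-positive papilla cells were analysed for 4 groups of 3 mice (control or dMF1/2, P14 or P16). Per the study's methods and the labels, the authors depleted ribosomal RNA, made stranded libraries, trimmed 61-base single-end reads with Trimmomatic, mapped them with TopHat version 2 to mm10, counted them per Ensembl gene (GRCm38.p4) with HTSeq-count and normalized with DESeq2. The deposited signal values are reads per protein-coding gene divided by a size factor, with 1 table of 6 libraries per day (15209 genes at P14, 15334 at P16). Columns of the authors' own comparison (base mean, log2 fold change, its error, statistic and p-values) were not used. All values were whole multiples of 1 read within 0.01 (100%), so reads were recovered, and each library held 19302358 to 29860750, with 44 to 50066 reads behind each value of the 8 genes.

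Within a day, limma 3.58.1 (mean-variance trend, R 4.3.3) compared the genotypes on log2(value + 1), keeping every gene whose mean reached 10, with Benjamini-Hochberg adjustment over all genes tested and a threshold of 0.05. Fold changes are on this log2 scale. Days and the interaction were fitted on the 14986 shared genes after median-of-ratios scaling of the 12 libraries (13415 tested). Exact two-sided permutation tests of group means cannot go below 0.1 for 3 against 3. Pairing by replicate number was checked as the correlation across genes of deviations from group means: 0.586, 0.389 and 0.304 at P14, 0.256, 0.293 and 0.311 at P16, but -0.162 to 0.208 across days. The number was therefore used as a block within a day. The scripts were tested on simulated data. Gene positions are from the GRCm38 annotation, exon lengths from GENCODE M21.

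The genes and lists were chosen with earlier results of these data known. Named were the 8 genes, genes of the 2 gene lists called at P14, the 5 largest rises and falls called in each at P16, and the 3 genes of most similar profile with a mean of at least 100. Alternatives were DESeq2 1.42.0 and edgeR 4.0.16 on the recovered reads, TMM scaling, pseudocounts of 0.1 and 10, no filter, at least 10 reads in every library, a fit of 12 or of 6 libraries, the block and each library left out. edgeR with the block was chosen after seeing the data.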

Additional observations from a re-analysis of the deposited data

How the results depend on the processing

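Of 744 values of single genes under another setting, 677 kept their direction and side of the threshold, 14 lost a call, 26 gained one and 27 changed sign. The number of the 8 genes called was 0 at P14, and 2 with DESeq2, 1 with the replicate block and 2 with edgeR and the block. At P16 it was 2, and 4 with DESeq2, 6 with the block and 6 with edgeR and the block. Between days it was 3 in control mice, and 5 with DESeq2 and 1 with only the 6 libraries compared. In dMF1/2 mice it was 0, and 2 with DESeq2 and 1 with only the 6 libraries compared. For the interaction it was 0 under every setting run, the replicate block included. Beyond the values given with each gene, the block changed the call of no other of the 8. Over all genes the count of calls rose with the block from 7 to 224 at P14 and from 582 to 1403 at P16, and with DESeq2 to 207 and 1123. The cause was not tested. Pseudocounts, filters and TMM scaling moved no count of the 8 by over 1.5 times.

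With 1 library left out, the count was 0 at P14, 1 to 2 at P16, 1 to 4 between days in control mice, 0 to 2 between days in dMF1/2 mice and 0 for the interaction. The calls over all genes moved in the same fits, to 0 to 18 at P14, 149 to 684 at P16, 693 to 2129 and 257 to 861 between days in control and dMF1/2 mice, and 0 to 2 for the interaction. The count of the 8 was 1 at P16 without control replicate 3 (184 genes in all) or dMF1/2 replicate 1 (404), 2 (306) or 3 (149), and 1 between days in control mice without P14 control replicate 1 (782). Between days in dMF1/2 mice it was 2 without P14 control replicate 3 (735), and 1 without P14 control replicate 1 (861) or P14 dMF1/2 replicate 1 (678). Tbx18 at P14 had a log2 fold change of -0.0029 in the joint fit of 12 libraries. Signs changed only for values near 0 with 1 library left out: Corin at P14 (-0.36 to 0.15), Trps1 at P14 (-0.10 to 0.15), Tbx18 at P14 (-0.17 to 0.22), at P16 (-0.17 to 0.0095) and between days in dMF1/2 mice (-0.10 to 0.30), and the interactions of Prom1 (-0.058 to 0.38), Sox18 (-0.26 to 0.27), Tbx18 (-0.30 to 0.10) and Ncam1 (-0.10 to 0.080). The block across days was not run, since the numbers do not pair across days. With 3 mice a group, limma's interval for Corin at P16 spans 0.62 to 2.85, so its size is known only within that range.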
